A study of Mus musculus with 12 samples.

Results

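The effect of MEC1 on the liver transcriptome of mice kept on a high-fat diet was read from 8 of the 12 RNA sequencing libraries of the series: the 4 titled HFD+MEC1 and the 4 titled HFD. The rule took the samples by title alone, so no expression value chose them. All mice were of the C57Bl/6 strain. Both groups ate a high-fat diet, which they had received for 2 months when they were randomised to dosing. The HFD group received vehicle and the HFD+MEC1 group 0.5 mg/kg MEC1, each as a daily intraperitoneal injection. MEC1 is known here only by that code name, in a series whose title concerns PROTACs, which are molecules that bring a chosen protein to a ubiquitin ligase. The length of dosing, the interval between the last injection and tissue collection, and the sex, age and feeding state of the mice are not given in the sources used here. The remaining 4 libraries, from mice on normal diet (ND), entered only the estimate of spread between replicates. The labels do not say that each library came from a different mouse, so p-values measure the spread between these libraries, which may be technical in part.

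A liver on high-fat diet stores triglyceride, and part of that fat is made in the hepatocyte from sugar: glucose and fructose pass through glycolysis, the pentose phosphate pathway and malic enzyme supply NADPH, and fatty acid synthase and desaturases build the chains. Transcription factors that respond to insulin and to carbohydrate set the level of these enzymes, whereas cholesterol synthesis answers to a related factor that senses sterols. Liver also answers inflammatory cytokines, above all interleukins that act through STAT factors, with the acute phase response, in which it secretes large amounts of a few plasma proteins. Mitophagy, the process in the series title, is the removal of mitochondria by autophagy, in which the kinase Pink1 and the ubiquitin ligase parkin tag a damaged mitochondrion.

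Libraries held between 39916405 and 51340317 counts. Hepatocyte markers summed to 101806 to 113043 CPM in HFD and 84037 to 111184 CPM in HFD+MEC1, and those of macrophages, sinusoidal endothelium, cholangiocytes and stellate cells each to at most 730.1 CPM in any library. A list was scored in each library as the median over its tested members of log2 CPM less the HFD mean. The hepatocyte marker score was -0.0421, 0.0321, -0.00596 and 0.0600 in HFD and 0.0419, 0.0270, -0.451 and 0.142 in HFD+MEC1. HFD+MEC1 replicate 3 thus had the lowest hepatocyte score, and also the lowest sum. The part of this in the values of that library below was not tested. Among marker lists of other cells 2 had scores that did not overlap between the groups, both lower in HFD+MEC1. For cholangiocyte markers, of which 10 were tested with 1 higher and 2 lower at an unadjusted p under 0.05, the score was 0.0653, 0.0717, 0.226 and 0.0139 in HFD and -0.156, -0.301, -0.0997 and -0.402 in HFD+MEC1. Their sums overlapped, at 205 to 218 CPM in HFD and 195 to 245 CPM in HFD+MEC1. For kidney and gut epithelium, with 3 of 4 tested markers lower, the score was -0.562, 0.334, 0.268 and -0.0309 in HFD and -0.776, -1.61, -1.15 and -1.003 in HFD+MEC1. Sums of these markers overlapped too, at 126.1 to 145.2 CPM in HFD and 56.2 to 129.6 CPM in HFD+MEC1. They include Kap, a gene at low counts that is described below. HFD+MEC1 replicate 1 and HFD replicate 4 lay toward the opposite group. On the first principal component of the 8 libraries, which held 32.6% of the variance, HFD libraries were at -31.6, -24.4, -30.7 and 2.64 and HFD+MEC1 libraries at -14.5, 29.6, 50.6 and 18.3, in order of replicate number. The mean correlation of HFD+MEC1 replicate 1 with HFD libraries (0.980) exceeded that with its own group (0.973). HFD+MEC1 replicate 3 lay highest on that component. List medians and log2 fold changes below that are at least 0.1 from 0 and moved by over 1.5 times without 1 of these 3 libraries are also given without it.

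The test, edgeR's quasi-likelihood F-test with Benjamini-Hochberg adjustment over all 14172 genes with enough counts, called 4 genes at an adjusted p under 0.05, which is 0.0282% of the genes tested. Transketolase (Tkt), histamine N-methyltransferase (Hnmt) and the lipid droplet protein Pnpla3 fell, and the F-box protein Fbxo21 rose. Many more genes stood near the threshold: at an unadjusted p under 0.05, 973 genes (6.87%) were higher and 1128 (7.96%) lower, and all 4 HFD+MEC1 libraries lay above all 4 HFD libraries for 443 genes (3.13%) and below them for 564 (3.98%). DESeq2 on the same counts called 146 genes higher (1.03%) and 243 lower (1.71%), and limma-voom called 1, the transcription factor gene Zbtb16. The median log2 fold change of all tested genes was 0.01. With library totals in place of TMM scaling, edgeR called 0 genes, the median moved to -0.05, and 29.9% of the 1917 genes at an unadjusted p under 0.05 were higher, against 46.3% of 2101 with TMM. Single libraries decided the count of calls: it was 460 without HFD+MEC1 replicate 1, 72 without HFD replicate 4, 9 without ND replicate 3, 7 without HFD replicate 2, 2 without ND replicate 2 and 0 without any 1 of the other 7. Gene groups are therefore described by counts at an unadjusted p under 0.05, by their DESeq2 calls and by their median, which stand beside the shares just given for all tested genes. "Apart" is used of a gene for which the 2 groups of 4 libraries do not overlap.

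**Figure D1:**
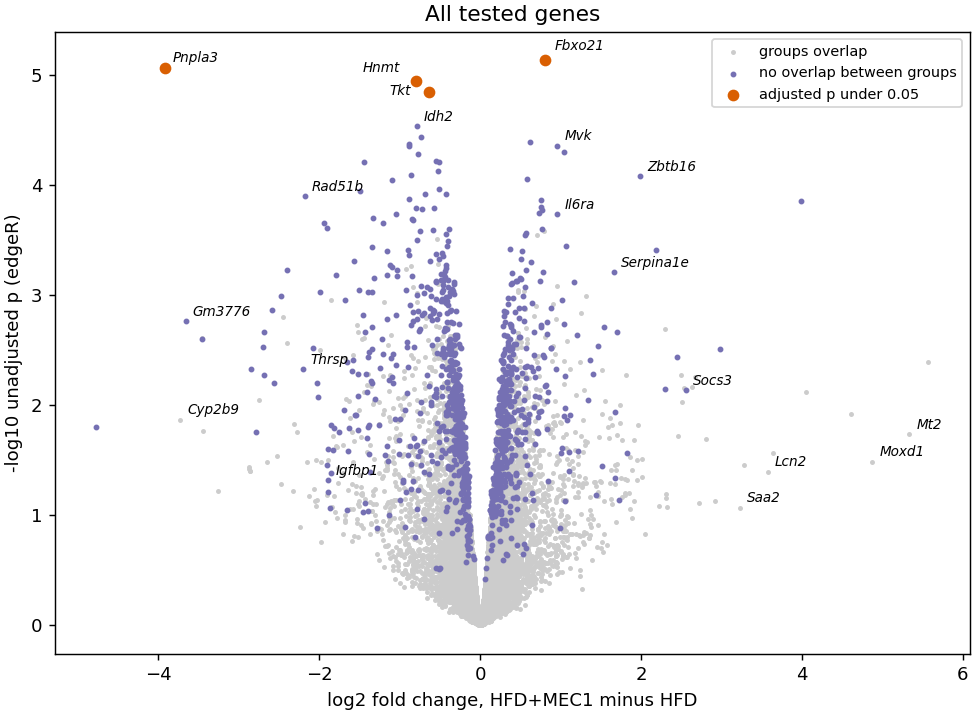
Each point is 1 of the 14172 tested genes, with the log2 fold change of HFD+MEC1 minus HFD on the x axis and -log10 of the unadjusted edgeR p on the y axis. Orange points are the 4 genes past an adjusted p of 0.05, purple points are genes apart between the groups. The points of Mt2, Moxd1 and Saa2, whose libraries differed widely within a group, lie far to the right at higher p.

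Levels are counts scaled to library size with TMM factors (CPM), always for replicates 1 to 4 in that order where 4 values stand, with group means over 4 libraries. Fold changes are on the log2 scale, HFD+MEC1 minus HFD, ± SE, and in parentheses they stand beside edgeR's adjusted p. Pnpla3, which acts on lipid droplets and whose human counterpart is linked to fatty liver, was at 1.54, 0.561, 2.46 and 4.01 CPM in HFD and at 0.148, 0.0786, 0.154 and 0.183 CPM in HFD+MEC1. Every HFD+MEC1 library was below every HFD library. The HFD libraries spread widely, with replicate 2 lowest and replicate 4 highest. The means were 2.14 (SD 1.47) and 0.141 (SD 0.0444) CPM, and Pnpla3 fell by 3.91 ± 0.61 on the log2 scale (edgeR adjusted p = 0.0499). These levels rest on 67, 26, 124 and 182 counts in HFD and only 7, 4, 6 and 8 counts in HFD+MEC1, and 6.78% of the exonic sequence of Pnpla3 is shared with a gene model on the same strand. Tkt, the transketolase of the non-oxidative pentose phosphate pathway, was at 121, 101, 139 and 110.1 CPM in HFD and at 86.2, 74.9, 67.7 and 73.8 CPM in HFD+MEC1. The highest HFD+MEC1 library was replicate 1 and the lowest HFD library replicate 2, with no overlap. Tkt fell by 0.64 ± 0.10, from a mean of 118 (SD 16.1) to one of 75.6 (SD 7.73) CPM (edgeR adjusted p = 0.0499). Hnmt, which inactivates histamine inside cells, was at 36.0, 27.7, 30.3 and 26.3 CPM in HFD and at 20.8, 15.4, 14.3 and 18.9 CPM in HFD+MEC1. No library of either group reached the other's range. Hnmt fell by 0.79 ± 0.13 (edgeR adjusted p = 0.0499), with means of 30.1 (SD 4.30) and 17.4 (SD 3.01) CPM. Fbxo21, the substrate-recognition part of a cullin-type ubiquitin ligase, was at 42.6, 38.4, 47.9 and 49.1 CPM in HFD and at 82.2, 77.3, 83.5 and 68.9 CPM in HFD+MEC1. No HFD library exceeded 49.1 CPM and no treated library was below 68.9 CPM. Fbxo21 rose by 0.81 ± 0.12 (edgeR adjusted p = 0.0499), with means of 44.5 (SD 4.99) and 78.0 (SD 6.58) CPM. Leaving out any 1 of the 12 libraries kept the 4 directions, with log2 fold changes from -4.23 to -3.42 for Pnpla3, -0.71 to -0.55 for Tkt, -0.89 to -0.69 for Hnmt and 0.74 to 0.87 for Fbxo21. The calls themselves were lost without ND replicate 1 or 4, HFD replicate 1 or 3, or HFD+MEC1 replicate 2, 3 or 4, where 0 genes passed, and adjusted p values over all alternatives reached 0.151 for Pnpla3, 0.155 for Tkt, 0.151 for Hnmt and 0.131 for Fbxo21. Calls of Tkt and Hnmt were also lost without ND replicate 2, and that of Fbxo21 without HFD replicate 2. With the 8 libraries alone, without ND, Fbxo21 kept its call and Pnpla3, Tkt and Hnmt lost theirs. None of the 4 was called with library totals, with limma-voom or on the deposited RPKM (counts per gene length and library size).

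**Figure D2:**
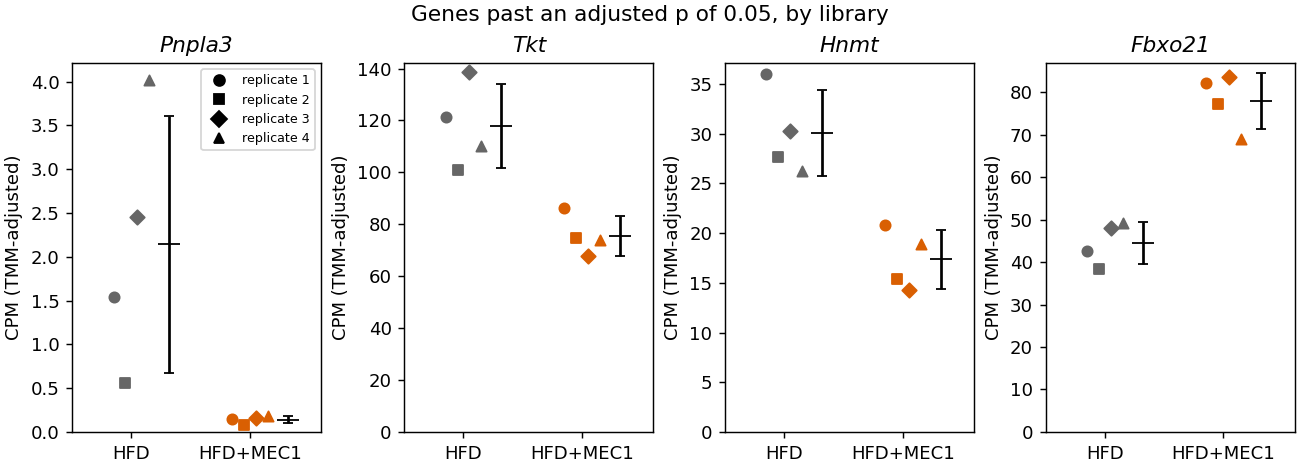
CPM of the 4 genes past an adjusted p of 0.05 in each library (y axes start at 0), with marker shape giving the replicate number and bars giving the group mean and SD over 4 libraries. In each panel all 4 HFD+MEC1 libraries lie on 1 side of all 4 HFD libraries.

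In GENCODE M21 (mm10) all 4 are protein-coding genes: Pnpla3 lies on chromosome 15 from 84167837 to 84187236, Tkt on chromosome 14 from 30548359 to 30574720 and Fbxo21 on chromosome 5 from 117976730 to 118010201, each on the plus strand, and Hnmt on chromosome 2 from 24002910 to 24049394 on the minus strand. The 250 bases upstream of the RefSeq start of each of these 4 genes are shown because they are the genes past the threshold, with capitals marking any match, on either strand, to 5 short motifs: the CCAAT box (CCAAT), the E-box CACGTG, a sterol-element type motif (TCACNCCAC), a STAT-type motif (TTCNNNGAA) and an antioxidant-element type motif (TGANNNNGC). All sequences are RefSeq, build GRCm38.p6, written 5′ to 3′ on the gene's strand. The windows are chr15:84167566-84167815 on the plus strand for Pnpla3, chr14:30548881-30549130 on the plus strand for Tkt, chr2:24049380-24049629 on the minus strand for Hnmt and chr5:117976520-117976769 on the plus strand for Fbxo21. RefSeq and GENCODE starts differ, so the Tkt window lies within the GENCODE span of Tkt. The Hnmt and Fbxo21 windows reach into the GENCODE spans of those genes. Distances are from the RefSeq start.
Pnpla3: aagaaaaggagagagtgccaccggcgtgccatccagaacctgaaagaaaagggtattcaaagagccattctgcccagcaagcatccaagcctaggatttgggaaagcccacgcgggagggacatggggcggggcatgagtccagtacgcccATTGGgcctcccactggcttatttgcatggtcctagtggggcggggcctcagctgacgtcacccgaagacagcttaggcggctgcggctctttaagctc
Tkt: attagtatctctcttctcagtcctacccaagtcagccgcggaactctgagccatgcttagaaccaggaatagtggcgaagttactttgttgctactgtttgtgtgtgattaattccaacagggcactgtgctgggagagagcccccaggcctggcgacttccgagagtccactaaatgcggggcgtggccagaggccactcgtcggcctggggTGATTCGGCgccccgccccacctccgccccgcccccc
Hnmt: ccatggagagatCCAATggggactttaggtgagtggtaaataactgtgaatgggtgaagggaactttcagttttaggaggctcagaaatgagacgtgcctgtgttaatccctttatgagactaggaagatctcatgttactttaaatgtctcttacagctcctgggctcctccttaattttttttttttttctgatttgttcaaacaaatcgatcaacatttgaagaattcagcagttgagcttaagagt
Fbxo21: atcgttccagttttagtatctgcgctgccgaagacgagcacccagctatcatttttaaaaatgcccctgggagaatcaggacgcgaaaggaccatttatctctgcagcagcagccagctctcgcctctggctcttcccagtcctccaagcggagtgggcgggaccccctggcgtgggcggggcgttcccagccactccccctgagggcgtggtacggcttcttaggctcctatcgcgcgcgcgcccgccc
Capitals mark a CCAAT box on the other strand starting 99 bases before the start of Pnpla3, an antioxidant-element type match 37 bases before that of Tkt and a CCAAT box 238 bases before that of Hnmt, and the Fbxo21 window has no match. These are letter matches only: of 32851 RefSeq promoter windows of the same length, 33.9% hold CCAAT, 35.2% the antioxidant-element type motif, 7.02% the STAT-type motif, 6.02% the E-box and 1.05% the sterol-element type motif.

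Genes of the lipogenesis (fat synthesis) list, which also holds the lipid droplet protein gene Pnpla3, were lower on MEC1. Of 22 tested members 1 fell past the adjusted threshold (Pnpla3) and 21 did not pass. At an unadjusted p under 0.05, 16 were lower and 0 higher, DESeq2 called 11 lower, 6 were apart downward, and the median log2 fold change was -0.81. The list score was 0.152, -0.507, 0.0391 and 0.194 in HFD and -0.336, -0.672, -1.27 and -0.910 in HFD+MEC1. HFD replicate 2 was the lowest HFD library and lay below HFD+MEC1 replicate 1, so the scores overlapped. The median of the list was -0.97 without HFD+MEC1 replicate 1, -0.69 without HFD replicate 4 and -0.65 without HFD+MEC1 replicate 3.

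Thrsp, which promotes lipogenesis in response to thyroid hormone and carbohydrate, was at 368, 90.4, 149 and 155 CPM in HFD and at 55.4, 44.0, 11.04 and 55.4 CPM in HFD+MEC1. HFD replicate 1 was far above the rest, and every treated library was below every HFD library (-2.20 ± 0.60, adjusted p = 0.157). Me1, malic enzyme, which supplies NADPH for chain building, was at 263, 210.1, 286 and 228 CPM in HFD and at 183, 61.8, 62.3 and 81.5 CPM in HFD+MEC1. Treated replicate 1 stood well above the other 3 treated libraries but below all HFD libraries (-1.34 ± 0.35, adjusted p = 0.138). Gpam, which starts triglyceride assembly by acylating glycerol phosphate, was at 529, 308, 453 and 540.0 CPM in HFD and at 305, 264, 205 and 233 CPM in HFD+MEC1. The groups were apart by a narrow gap, since HFD replicate 2 and HFD+MEC1 replicate 1 nearly met (-0.86 ± 0.16, adjusted p = 0.0632).

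Uptake and storage genes stood on the same side. In the list of lipid droplet and triglyceride storage genes, 8 of 24 were lower and 1 higher at an unadjusted p under 0.05. Only 1 of the 24 was apart downward (4.17%, against 3.98% of all tested genes). DESeq2 called 3 lower and edgeR 0, and the median was -0.22. It was -0.37 without HFD+MEC1 replicate 1. Cd36, a fatty acid uptake receptor, was at 167, 185, 274 and 83.6 CPM in HFD and at 95.8, 38.6, 51.1 and 62.0 CPM in HFD+MEC1. The groups met only in HFD replicate 4 and HFD+MEC1 replicate 1 (-1.52 ± 0.37, adjusted p = 0.130). Fabp4, a fatty acid binding protein more typical of adipocytes and macrophages, was at 10.8, 11.3, 14.9 and 13.5 CPM in HFD and at 7.67, 8.16, 7.57 and 6.19 CPM in HFD+MEC1 and was apart (-0.77 ± 0.14, adjusted p = 0.0576). Pparg, the nuclear receptor that drives fat storage genes, was at 15.1, 14.0, 16.98 and 10.7 CPM in HFD and at 11.9, 4.32, 3.88 and 5.80 CPM in HFD+MEC1. HFD+MEC1 replicate 1 lay inside the HFD range of Pparg and the other treated libraries below it (-1.13 ± 0.35, adjusted p = 0.177). Of 8 adipocyte markers 3 could be tested, with 1 higher and 0 lower at an unadjusted p under 0.05. They summed to 2316 to 3814 CPM in HFD and 299 to 3207 CPM in HFD+MEC1. The defining adipocyte genes Adipoq, Lep, Plin1 and Ucp1 were at 0 counts in all 8 libraries. In tissue RNA, fewer cells of a type and less RNA per cell cannot be told apart.

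The enzymes that carry sugar toward fat and NADPH were lower with less scatter between libraries. In the pentose phosphate and NADPH list, 7 of 12 members were lower and 1 higher at an unadjusted p under 0.05, 7 were apart downward, DESeq2 called 4 lower and edgeR 1 (Tkt). The list score was 0.0401, -0.141, 0.0152 and -0.0690 in HFD and -0.290, -0.260, -0.430 and -0.220 in HFD+MEC1, with no overlap. Its median over genes was -0.28, and -0.21 without HFD+MEC1 replicate 3. Pgd, the second NADPH-yielding dehydrogenase of the pathway, was at 49.3, 38.1, 56.9 and 48.1 CPM in HFD and at 25.9, 34.3, 24.7 and 30.2 CPM in HFD+MEC1 (-0.74 ± 0.13, adjusted p = 0.0576). Idh2, which yields NADPH in the mitochondrion, was at 87.7, 71.2, 99.0 and 66.5 CPM in HFD and at 57.2, 40.1, 39.1 and 51.3 CPM in HFD+MEC1 (-0.79 ± 0.14, adjusted p = 0.0576). For both genes all 4 treated libraries were below the lowest HFD library. Taldo1, transaldolase, which works beside Tkt, ran from 106 to 130.5 CPM in HFD and 90.6 to 102 CPM in HFD+MEC1 (-0.29 ± 0.08, adjusted p = 0.133). Rpia, ribose phosphate isomerase, ran from 3.62 to 5.87 CPM in HFD and 2.28 to 3.597 CPM in HFD+MEC1 (-0.61 ± 0.21, adjusted p = 0.189). These were apart by far smaller gaps.

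For glycolysis and fructose use, 12 of 22 members were lower and 0 higher at an unadjusted p under 0.05, 9 were apart downward, DESeq2 called 8 lower and edgeR 0, and the median was -0.29. Pklr, liver pyruvate kinase, was at 414, 230.1, 291 and 237 CPM in HFD and at 188, 123, 85.5 and 141 CPM in HFD+MEC1 (-1.12 ± 0.24, adjusted p = 0.101). Of its exonic sequence 21.97% overlaps an opposite-strand gene. Khk, the kinase that commits fructose, was at 600.1, 399, 496 and 409.5 CPM in HFD and at 369, 262, 205 and 339 CPM in HFD+MEC1 (-0.70 ± 0.18, adjusted p = 0.113). Pklr and Khk were each apart, and HFD+MEC1 replicate 3 was the lowest library for both. Eno1, enolase, ran from 233 to 332 CPM in HFD and 155 to 220.4 CPM in HFD+MEC1 (-0.55 ± 0.13, adjusted p = 0.101). Gpi1, glucose phosphate isomerase, ran from 85.0 to 126 CPM in HFD and 68.4 to 83.4 CPM in HFD+MEC1 (-0.49 ± 0.12, adjusted p = 0.101), with 11.5% of its exonic sequence overlapping an opposite-strand gene. Eno1 and Gpi1 were apart too, again with HFD+MEC1 replicate 3 lowest.

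Glycogen and glucose output genes were lower as well. In the gluconeogenesis and glycogen list 7 of 18 members were lower and 0 higher at an unadjusted p under 0.05, 5 were apart downward, DESeq2 called 5 lower and edgeR 0, and the median was -0.34, or -0.20 without HFD replicate 1. Gbe1, the glycogen branching enzyme, was at 195, 163, 192 and 157 CPM in HFD and at 132, 84.5, 64.2 and 103 CPM in HFD+MEC1 and was apart (-0.88 ± 0.17, adjusted p = 0.0701). G6pc, the phosphatase that releases glucose from the cell, was at 500.4, 381, 399 and 363 CPM in HFD and at 233, 182, 114 and 210.0 CPM in HFD+MEC1 and was apart (-1.15 ± 0.28, adjusted p = 0.119). The 2 genes shared an order over the treated libraries, with replicate 1 highest and replicate 3 lowest. Gys2, liver glycogen synthase, ran from 97.1 to 135 CPM in HFD and 66.9 to 102 CPM in HFD+MEC1 (-0.53 ± 0.12, adjusted p = 0.101). Ugp2, which makes the UDP-glucose that glycogen is built from, ran from 249 to 459 CPM in HFD and 137 to 274 CPM in HFD+MEC1 (-0.84 ± 0.21, adjusted p = 0.113). Both Gys2 and Ugp2 overlapped through HFD+MEC1 replicate 1.

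Insulin signalling genes showed no common direction. Of 20, 1 was higher and 2 lower at an unadjusted p under 0.05, edgeR and DESeq2 called 0, and the median was -0.02. Akt1, the kinase downstream of the receptor, ran from 33.1 to 39.3 CPM in HFD and 39.3 to 53.2 CPM in HFD+MEC1 and overlapped (0.33 ± 0.11, adjusted p = 0.180). Igfbp1, a secreted protein gene that insulin represses, was at 78.7, 86.1, 244 and 246 CPM in HFD and at 38.4, 15.9, 57.1 and 65.9 CPM in HFD+MEC1 and was apart downward (-1.89 ± 0.83, adjusted p = 0.332). HFD replicates 3 and 4 were well above HFD replicates 1 and 2.

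**Figure D3:**
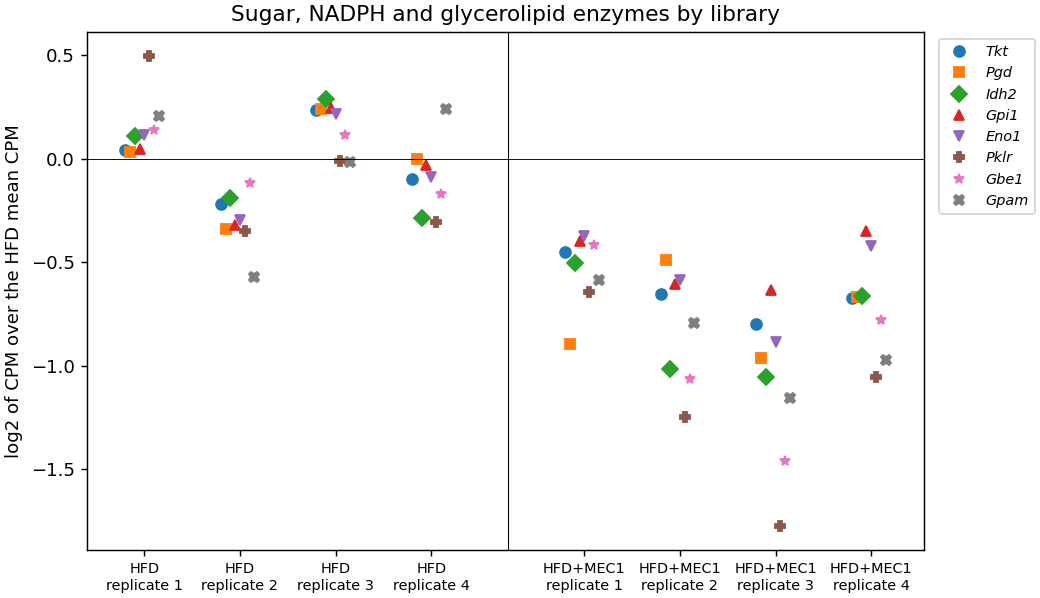
Log2 of CPM over the HFD mean CPM (y axis) for 8 enzymes of sugar, NADPH and glycerolipid metabolism in each of the 8 libraries (x axis). All HFD+MEC1 points lie below 0, and HFD+MEC1 replicate 3 holds the lowest point of each of the 8 enzymes.

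Most genes that burn fat or make ketone bodies were negative. In fatty acid oxidation, 27 of 30 members were negative, and 7 were lower and 1 higher at an unadjusted p under 0.05. Only 1 of the 30 was apart downward (3.33%, against 3.98% of all tested genes), and edgeR and DESeq2 called 0. The median was -0.20, or -0.11 without HFD+MEC1 replicate 2 and -0.13 without HFD replicate 3. Hadh, the hydroxyacyl-CoA dehydrogenase of beta-oxidation, ran from 322 to 459.9 CPM in HFD and 232 to 361 CPM in HFD+MEC1 and overlapped (-0.42 ± 0.13, adjusted p = 0.171). Acaa1b, a peroxisomal thiolase, was at 1627, 1629.7, 1969.7 and 1311 CPM in HFD and at 1468, 642, 597 and 909 CPM in HFD+MEC1 (-0.85 ± 0.24, adjusted p = 0.143). Acaa1b overlapped through HFD+MEC1 replicate 1, and 11.4% of its exonic sequence overlaps an opposite-strand gene. Of 8 ketone body genes, 7 were negative, and 3 were lower and 0 higher at an unadjusted p under 0.05. None of the 8 was apart, and edgeR and DESeq2 called 0. Their median was -0.29, and it was -0.44 without HFD+MEC1 replicate 1 and -0.16 without HFD replicate 3.

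Of 43 genes of amino acid breakdown and one-carbon metabolism, 36 were negative, 10 lower and 1 higher at an unadjusted p under 0.05, and DESeq2 called 1 lower and edgeR 0 (median -0.19, or -0.12 without HFD+MEC1 replicate 3). Pcca, a subunit of propionyl-CoA carboxylase, ran from 73.8 to 93.4 CPM in HFD and 46.1 to 69.5 CPM in HFD+MEC1 (-0.45 ± 0.12, adjusted p = 0.129). Bckdhb, a subunit of the branched-chain ketoacid dehydrogenase, ran from 58.7 to 73.4 CPM in HFD and 38.4 to 58.3 CPM in HFD+MEC1 (-0.42 ± 0.12, adjusted p = 0.143). Gls2, the liver glutaminase, ran from 158 to 234 CPM in HFD and 136 to 152 CPM in HFD+MEC1 (-0.36 ± 0.11, adjusted p = 0.158), with a fold change of -0.22 without HFD replicate 1. All 3 were apart downward, Bckdhb by less than 1 CPM between HFD replicate 4 and HFD+MEC1 replicate 4.

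Cholesterol synthesis genes stood on the other side of 0 from genes of the lipogenesis list. Of 24, 8 were higher and 0 lower at an unadjusted p under 0.05, 3 were apart upward, DESeq2 called 4 higher and edgeR 0, and the median was 0.20. Mvk, mevalonate kinase, was at 21.0, 17.4, 24.1 and 27.9 CPM in HFD and at 34.7, 55.3, 41.1 and 44.2 CPM in HFD+MEC1 (0.96 ± 0.17, adjusted p = 0.0576). Msmo1, a sterol methyl oxidase, was at 185, 147, 199 and 201 CPM in HFD and at 263, 362, 206 and 316 CPM in HFD+MEC1 (0.65 ± 0.16, adjusted p = 0.107). Srebf2, the gene of the sterol-sensing transcription factor of this pathway, was at 52.7, 44.9, 52.2 and 54.8 CPM in HFD and at 63.3, 74.3, 68.8 and 62.8 CPM in HFD+MEC1 (0.39 ± 0.09, adjusted p = 0.101). The 3 genes were apart upward, with HFD+MEC1 replicate 2 highest in each. The list as a whole was uneven, since 7 members were negative. Its score overlapped, at -0.0425, -0.368, 0.0516 and 0.362 in HFD and 0.185, 0.575, -0.123 and 0.255 in HFD+MEC1. Its median was 0.07 without HFD replicate 2, 0.08 without HFD+MEC1 replicate 2, 0.32 without HFD+MEC1 replicate 3 and 0.35 without HFD replicate 4.

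The upstream window of Mvk (RefSeq, GRCm38.p6, chr5:114444019-114444268, plus strand) is shown as that of the cholesterol gene with the lowest p, with capitals for motif matches as above.
Mvk: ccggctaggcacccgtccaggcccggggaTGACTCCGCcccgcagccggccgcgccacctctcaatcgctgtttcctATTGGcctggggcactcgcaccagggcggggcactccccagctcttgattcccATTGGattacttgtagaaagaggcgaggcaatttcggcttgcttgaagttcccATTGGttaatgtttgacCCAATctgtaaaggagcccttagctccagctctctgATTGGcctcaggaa
Capitals mark 5 CCAAT boxes on either strand, starting 173, 120, 67, 50 and 14 bases before the start, and 1 antioxidant-element type match 221 bases before it. CCAAT was found in at least 1 upstream window of all 16 cholesterol genes that have one in the RefSeq table, against 40.4% of the 10991 tested genes with a window. It was also found in 68.4% of 19 lipogenesis genes, which stood on the opposite side of 0.

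In the bile acid list, 2 of 23 genes were higher and 0 lower at an unadjusted p under 0.05, DESeq2 called 1 higher and edgeR 0, and the median was -0.09. Cyp7b1, a hydroxylase of the alternative bile acid pathway, was at 223, 238, 113 and 217 CPM in HFD and at 228, 589, 519 and 558 CPM in HFD+MEC1. HFD replicate 3 was low, and HFD+MEC1 replicate 1 lay inside the HFD range (1.26 ± 0.30, adjusted p = 0.113). Nr0b2, a receptor that represses bile acid synthesis, ran from 16.7 to 30.7 CPM in HFD and 32.6 to 46.1 CPM in HFD+MEC1 and was apart upward (0.58 ± 0.24, adjusted p = 0.301). Among lipoprotein genes, 4 of 24 were higher and 6 lower at an unadjusted p under 0.05, and DESeq2 called 1 higher and 2 lower and edgeR 0. Their median was -0.14, or -0.08 without HFD replicate 3, -0.09 without HFD replicate 4 and -0.08 without HFD+MEC1 replicate 3. Apoa4, an apolipoprotein that liver makes when loaded with fat, was at 854, 883, 2597 and 1084 CPM in HFD and at 533, 370.1, 738 and 252 CPM in HFD+MEC1 and was apart downward (-1.52 ± 0.43, adjusted p = 0.163). HFD replicate 3 was far above the rest, without which the fold change was -0.99, and 69.8% of the exonic sequence of Apoa4 is overlapped from the opposite strand. Apoc2, the cofactor of lipoprotein lipase, ran from 139 to 225 CPM in HFD and 105 to 139 CPM in HFD+MEC1 and was apart downward (-0.51 ± 0.13, adjusted p = 0.113), but 79.5% of its exonic sequence is shared with another gene model on the same strand. Apom, which carries sphingosine phosphate on HDL, ran from 62.9 to 94.9 CPM in HFD and 81.7 to 119 CPM in HFD+MEC1 and overlapped (0.45 ± 0.13, adjusted p = 0.136).

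The respiratory chain genes encoded in the nucleus were lower by a small and even amount. Of 75 members of the oxidative phosphorylation list 74 were negative, 42 were lower and 0 higher at an unadjusted p under 0.05, 23 were apart downward, edgeR called 0 and DESeq2 3, and the median was -0.22. Ndufa6 was at 98.8, 94.998, 97.0 and 93.9 CPM in HFD and at 83.1, 73.3, 68.4 and 80.6 CPM in HFD+MEC1 (-0.33 ± 0.08, adjusted p = 0.101). Ndufs4 was at 48.5, 50.8, 50.8 and 46.7 CPM in HFD and at 42.7, 39.7, 39.0 and 41.9 CPM in HFD+MEC1 (-0.27 ± 0.07, adjusted p = 0.124). Ndufa10 was at 101, 87.8, 107 and 97.7 CPM in HFD and at 84.6, 76.3, 70.0 and 87.1 CPM in HFD+MEC1 (-0.31 ± 0.09, adjusted p = 0.143). All 3 encode subunits of complex I and were apart, Ndufa10 by less than 1 CPM. The list score did not overlap, at 0.0168, -0.0599, 0.0604 and -0.0268 in HFD and -0.168, -0.265, -0.343 and -0.0877 in HFD+MEC1, and the median without HFD+MEC1 replicate 3 was -0.17. Of 75 mitochondrial ribosome genes 3 were lower and 0 higher at an unadjusted p under 0.05, with a median of -0.06. For mitochondrial import and quality control 3 of 38 were lower and 0 higher, with a median of -0.04. Neither edgeR nor DESeq2 called a gene of these 2 lists. Mrpl16, a mitochondrial ribosome protein, was at 37.5, 36.5, 36.2 and 28.9 CPM in HFD and at 26.3, 27.2, 26.5 and 31.1 CPM in HFD+MEC1, with HFD replicate 4 among the treated libraries (-0.32 ± 0.10, adjusted p = 0.171).

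For mitophagy, 2 of 30 genes were higher and 4 lower at an unadjusted p under 0.05, edgeR and DESeq2 called 0, and the median was -0.05. Pink1 was at 154, 143, 179 and 154 CPM in HFD and at 144, 125, 129 and 134 CPM in HFD+MEC1, and the groups met in HFD replicate 2 and HFD+MEC1 replicate 1 (-0.24 ± 0.09, adjusted p = 0.209). Park2, parkin, was low, at 0.826, 0.432, 1.57 and 0.728 CPM in HFD and at 0.784, 1.16, 0.770 and 1.19 CPM in HFD+MEC1 (0.14 ± 0.41, adjusted p = 0.913). Usp30, the deubiquitinase that opposes parkin, was at 11.8, 11.4, 12.5 and 12.2 CPM in HFD and at 11.04, 10.99, 12.7 and 12.2 CPM in HFD+MEC1 (-0.03 ± 0.11, adjusted p = 0.931). The groups overlapped for Park2 and Usp30, and the fold change of Park2 ran from -0.09 without HFD replicate 2 to 0.56 without HFD replicate 3, with 0.05 without HFD replicate 4 and 0.23 and 0.24 without HFD+MEC1 replicates 1 and 3. Nipsnap1, a mitochondrial protein that recruits autophagy receptors, was at 247, 218, 231 and 213 CPM in HFD and at 205, 166, 131 and 194 CPM in HFD+MEC1 and was apart downward (-0.38 ± 0.12, adjusted p = 0.163). Tbk1, a kinase that activates those receptors, was at 21.5, 23.8, 21.7 and 20.9 CPM in HFD and at 24.0, 25.2, 29.0 and 26.5 CPM in HFD+MEC1 and was apart upward by less than 1 CPM (0.25 ± 0.09, adjusted p = 0.200). In the autophagy machinery, 4 of 37 genes were higher and 4 lower at an unadjusted p under 0.05, edgeR and DESeq2 called 0, and the median was 0.01. Atg2b, a lipid transfer protein of the growing autophagosome, ran from 24.7 to 27.1 CPM in HFD and 29.0 to 36.1 CPM in HFD+MEC1 and was apart (0.33 ± 0.11, adjusted p = 0.171). Wipi1, which binds the autophagosome membrane, ran from 5.69 to 7.21 CPM in HFD and 6.02 to 9.61 CPM in HFD+MEC1 and overlapped (0.43 ± 0.16, adjusted p = 0.217). Only mRNA was measured, not the removal of mitochondria.

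The medians of the ubiquitin ligase lists stood close to that of all genes. Fbxo21 was 1 of 52 tested F-box genes. In that list 3 were higher and 2 lower at an unadjusted p under 0.05, DESeq2 called 2 higher and the median was 0.06. Apart upward were 4 (7.69%, against 3.13% of all tested genes), and 0 were apart downward. The summed CPM of the list, Fbxo21 included, did not overlap, at 969.9 to 1000.5 in HFD and 1016 to 1063 in HFD+MEC1. The list score overlapped. Fbxo31, an F-box protein that targets cyclins, was at 24.8, 24.6, 29.0 and 28.5 CPM in HFD and at 39.3, 33.2, 65.6 and 45.3 CPM in HFD+MEC1 and was apart, with HFD+MEC1 replicate 3 highest (0.78 ± 0.18, adjusted p = 0.101). Skp1a, the adaptor that joins F-box proteins to the cullin, was at 216, 232, 246 and 201 CPM in HFD and at 199, 156, 145 and 174 CPM in HFD+MEC1 (-0.41 ± 0.11, adjusted p = 0.127). Skp1a was apart downward by the small gap between HFD replicate 4 and HFD+MEC1 replicate 1. It was the 1 gene of 29 in the list of cullin ligases and PROTAC receptors that was lower at an unadjusted p under 0.05, and the 1 that DESeq2 called, whereas 0 were higher and edgeR called 0. Crbn, cereblon, a ligase subunit that many PROTACs recruit, was at 47.0, 44.9, 39.4 and 39.2 CPM in HFD and at 44.0, 36.8, 43.2 and 42.4 CPM in HFD+MEC1 (-0.03 ± 0.09, adjusted p = 0.901). Vhl, another such subunit, was at 8.97, 13.2, 8.38 and 10.3 CPM in HFD and at 10.6, 12.7, 9.83 and 10.4 CPM in HFD+MEC1 (0.09 ± 0.14, adjusted p = 0.817). The groups overlapped for both. Of 31 proteasome genes 0 were past an unadjusted p under 0.05, edgeR and DESeq2 called 0, and the median was -0.02.

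Acute phase genes were higher in 3 of the 4 HFD+MEC1 libraries and scattered widely. All 31 tested members had a positive log2 fold change (median 1.03), 18 were higher and 0 lower at an unadjusted p under 0.05, edgeR called 0 and DESeq2 2, and 2 were apart. The list score was -0.238, -0.0406, -0.0721 and 0.271 in HFD and -0.333, 0.710, 2.19 and 0.765 in HFD+MEC1. HFD+MEC1 replicate 1 was the lowest of the 8 libraries, HFD+MEC1 replicate 3 the highest and HFD replicate 4 the highest of its group. Without HFD+MEC1 replicate 3 the median was 0.43 and 27 of 31 members were positive, and without HFD+MEC1 replicate 1 the median was 1.30.

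Saa1, which encodes serum amyloid A, was at 78.9, 95.1, 91.0 and 1178 CPM in HFD and at 23.4, 1707, 7761 and 1430.0 CPM in HFD+MEC1. Saa2, its near-identical neighbour with which it may share reads, was at 45.1, 31.2, 44.3 and 849.9 CPM in HFD and at 9.41, 1096, 7091 and 883 CPM in HFD+MEC1. Both were lowest in HFD+MEC1 replicate 1 and highest in HFD+MEC1 replicate 3, and HFD replicate 4 was many times above the other HFD libraries. Saa1 had a log2 fold change of 2.92 ± 1.45 (edgeR adjusted p = 0.388), which was 1.55 without HFD+MEC1 replicate 3 and 4.95 without HFD replicate 4. That of Saa2, 3.23 ± 1.67 (edgeR adjusted p = 0.411), was 1.45 and 5.82 without those libraries. Lcn2, lipocalin, which binds bacterial iron carriers, was at 13.1, 13.2, 25.3 and 66.0 CPM in HFD and at 3.65, 93.4, 1237 and 66.9 CPM in HFD+MEC1 (3.57 ± 1.496, adjusted p = 0.316). Orm2, an orosomucoid plasma protein with close paralogs, was at 11.9, 17.1, 21.4 and 28.5 CPM in HFD and at 2.90, 80.9, 638 and 48.5 CPM in HFD+MEC1 (3.29 ± 1.33, adjusted p = 0.302). For both, HFD+MEC1 replicate 3 stood far above all other libraries and HFD+MEC1 replicate 1 was the lowest of the 8. Leaving out HFD+MEC1 replicate 3 moved Lcn2 to 0.90 and Orm2 to 1.17. Mt2, a metallothionein that binds zinc, was at 1.93, 1.92, 2.65 and 2.69 CPM in HFD and at 1.48, 1.18, 364 and 6.45 CPM in HFD+MEC1. Its log2 fold change of 5.34 ± 1.86 was 0.40 without HFD+MEC1 replicate 3, and 73.5% of its exonic sequence overlaps an opposite-strand gene. Itih3, a plasma protease inhibitor chain, was at 433, 531, 424 and 686 CPM in HFD and at 477, 1077, 1730.0 and 981 CPM in HFD+MEC1, with HFD+MEC1 replicate 1 inside the HFD range (1.04 ± 0.31, adjusted p = 0.172).

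The 2 acute phase list members that were apart were Il6ra and Socs3. Il6ra, the receptor subunit for interleukin 6, was at 19.4, 26.4, 20.5 and 22.96 CPM in HFD and at 42.5, 42.3, 33.9 and 54.5 CPM in HFD+MEC1 (0.96 ± 0.19, adjusted p = 0.0721). HFD+MEC1 replicate 1 was as high as replicate 2 for Il6ra, and replicate 3 was the lowest treated library. Socs3, which STAT signalling induces and which shuts it off, was at 1.42, 2.24, 2.83 and 2.69 CPM in HFD and at 3.31, 4.36, 37.1 and 9.61 CPM in HFD+MEC1 (2.55 ± 0.75, adjusted p = 0.177). It was apart, but most of the difference was in HFD+MEC1 replicate 3, without which the fold change was 1.33.

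**Figure D4:**
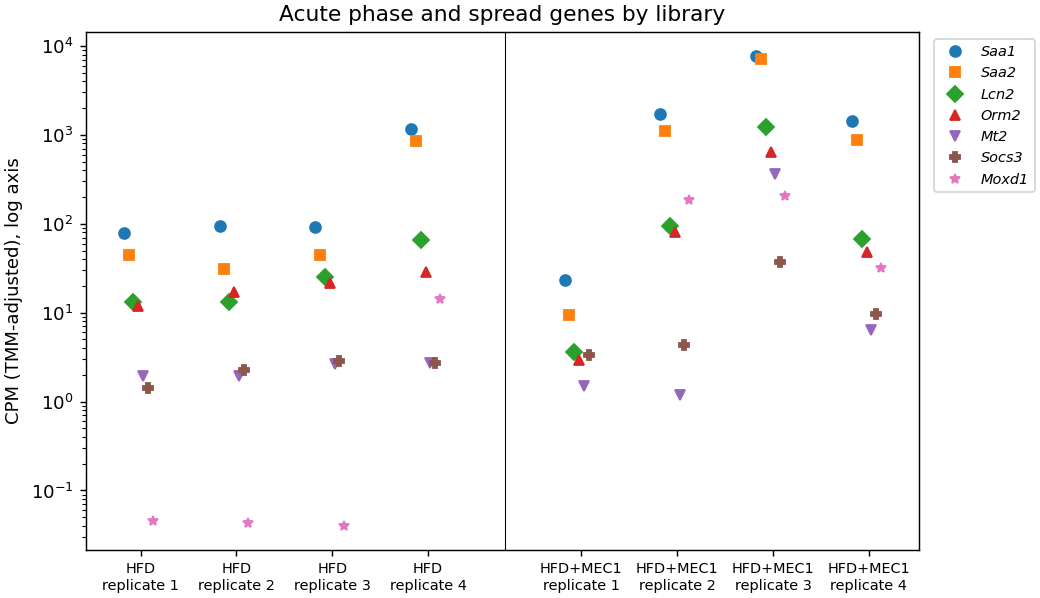
CPM on a log axis (y axis) for 7 genes in each of the 8 libraries (x axis), where Moxd1 in HFD+MEC1 replicate 1 is at 0 CPM and is not drawn. Saa1, Saa2, Lcn2 and Orm2 are lowest in HFD+MEC1 replicate 1 and highest in HFD+MEC1 replicate 3, and Saa1 and Saa2 of HFD replicate 4 lie near those of HFD+MEC1 replicate 4.

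The upstream window of Socs3 (RefSeq, GRCm38.p6, chr11:117969367-117969616, minus strand) was picked because it has a STAT-type match, in capitals. The windows of Saa1, Saa2, Lcn2, Orm2 and Il6ra have none. Among other genes named here, Irf1, Nr0b2, Wipi1 and Moxd1, with positive log2 fold changes, have one. So do Hamp2, Rarb, Lrrc28 and Gm3776, with negative ones.
Socs3: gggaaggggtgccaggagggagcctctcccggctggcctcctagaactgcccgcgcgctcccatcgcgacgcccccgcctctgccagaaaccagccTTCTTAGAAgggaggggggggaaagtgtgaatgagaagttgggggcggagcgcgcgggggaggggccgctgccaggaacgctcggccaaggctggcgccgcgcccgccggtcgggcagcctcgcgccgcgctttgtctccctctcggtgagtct
The match starts 154 bases before the RefSeq start. The window lies within the GENCODE span of Socs3, from 117966079 to 117970047. Of 25 acute phase genes with a RefSeq window, 7 (28.0%) hold this motif, against 7.44% of the 10991 tested genes with a window. It is also in 31.25% of 16 bile acid genes, whose median was just below 0, and in 25.9% of 27 interferon-stimulated genes.

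Neutrophil markers were low throughout. Of the 8 that could be tested 0 were past an unadjusted p under 0.05 and edgeR and DESeq2 called 0, and Ly6g and Mpo were too low to test. They summed to 3.70 to 15.5 CPM in HFD and 5.43 to 18.6 CPM in HFD+MEC1. Their score was -1.43, -0.570, 0.872 and 0.955 in HFD and -0.506, -0.225, 1.08 and -0.241 in HFD+MEC1. The highest library of each group, HFD replicate 4 and HFD+MEC1 replicate 3, was the same as for the acute phase score, while HFD replicate 3 was high for neutrophil markers and not for acute phase genes. Macrophage markers summed to 467 to 730.1 CPM in HFD and 531 to 718 CPM in HFD+MEC1. The part of these cells in the acute phase result was not tested.

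Complement and coagulation genes, which hepatocytes also secrete, were higher in HFD+MEC1 replicates 2, 3 and 4. Of 42, 17 were higher and 0 lower at an unadjusted p under 0.05, DESeq2 called 7 and edgeR 0, and the median was 0.20, or 0.31 without HFD+MEC1 replicate 1. In this list 1 gene was apart upward (2.38%, against 3.13% of all tested genes). The list score was -0.0122, -0.0380, -0.0351 and 0.123 in HFD and -0.0444, 0.212, 0.424 and 0.309 in HFD+MEC1. HFD+MEC1 replicate 1 was thus the lowest of the 8 libraries. C3, the central complement protein, was at 3544, 3989, 3922 and 5056 CPM in HFD and at 4632, 7119, 12386 and 6767 CPM in HFD+MEC1, with HFD+MEC1 replicate 1 inside the HFD range (0.90 ± 0.23, adjusted p = 0.108). Without HFD+MEC1 replicate 3 the fold change of C3 was 0.59. F11, a coagulation factor, ran from 35.1 to 53.5 CPM in HFD and 55.5 to 79.4 CPM in HFD+MEC1 and was the 1 member apart (0.54 ± 0.13, adjusted p = 0.102). Serpinf2, the inhibitor of plasmin, ran from 568 to 794 CPM in HFD and 721 to 1064 CPM in HFD+MEC1 and overlapped through HFD replicate 4 (0.55 ± 0.14, adjusted p = 0.101). Serpina1e, one of several near-identical alpha-1-antitrypsin genes that may share reads, was at 2302, 4186, 1566 and 5675 CPM in HFD and at 5840.5, 15233, 10358 and 11912 CPM in HFD+MEC1 and was apart upward (1.66 ± 0.37, adjusted p = 0.101).

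The endoplasmic reticulum folding list was positive in 26 of 27 members. At an unadjusted p under 0.05 11 were higher and 0 lower. Only 1 was apart upward (3.70%, against 3.13% of all tested genes). DESeq2 called 1 and edgeR 0, and the median was 0.26. Pdia6, a disulfide isomerase, ran from 233 to 334 CPM in HFD and 289.6 to 501 CPM in HFD+MEC1 (0.49 ± 0.15, adjusted p = 0.157). Calr, a calcium-binding chaperone, ran from 549 to 745 CPM in HFD and 731 to 909 CPM in HFD+MEC1 (0.38 ± 0.12, adjusted p = 0.159). Dnajb11, a co-chaperone, ran from 92.8 to 105 CPM in HFD and 103 to 146 CPM in HFD+MEC1 (0.38 ± 0.11, adjusted p = 0.143). In each, HFD+MEC1 replicate 1 overlapped with HFD. Of 38 interferon-stimulated genes, 7 were higher and 0 lower at an unadjusted p under 0.05, DESeq2 called 1 and edgeR 0, and the median was 0.11, or 0.07 without HFD replicate 2. Irf1, a transcription factor gene of the interferon response, was at 13.7, 14.1, 16.1 and 18.2 CPM in HFD and at 20.1, 23.3, 26.7 and 21.3 CPM in HFD+MEC1 (0.56 ± 0.12, adjusted p = 0.0788). It was the 1 member apart.

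Most conjugation and antioxidant genes were negative, whereas cytochrome P450 genes went both ways. Of 43 conjugation, esterase and aldehyde oxidation genes, 1 fell past the adjusted threshold (Hnmt). At an unadjusted p under 0.05, 21 were lower and 1 higher. Hnmt was the 1 member apart downward (2.33%, against 3.98% of all tested genes). DESeq2 called 7 lower and the median was -0.39. The list score overlapped, at 0.104, 0.0565, 0.0789 and -0.243 in HFD and -0.0538, -0.580, -0.812 and -0.233 in HFD+MEC1, with HFD replicate 4 below HFD+MEC1 replicates 1 and 4. Gstm1, a glutathione transferase, was at 773, 739, 1046 and 545 CPM in HFD and at 597, 371, 311 and 428 CPM in HFD+MEC1 (-0.86 ± 0.20, adjusted p = 0.101). Ces2e, a carboxylesterase, was at 229, 235, 244 and 185 CPM in HFD and at 195, 106, 103 and 150.3 CPM in HFD+MEC1 (-0.69 ± 0.18, adjusted p = 0.124). Both overlapped through HFD+MEC1 replicate 1. In the NRF2 and glutathione list 10 of 23 were lower and 0 higher at an unadjusted p under 0.05, 5 were apart downward, DESeq2 called 6 and edgeR 0, and the median was -0.15, or -0.24 without HFD+MEC1 replicate 1. Nfe2l2, the gene of NRF2, the transcription factor of the antioxidant response, was at 56.3, 71.4, 72.9 and 56.7 CPM in HFD and at 47.2, 48.4, 42.7 and 40.3 CPM in HFD+MEC1 and was apart (-0.53 ± 0.10, adjusted p = 0.0632). Me1, Pgd and Taldo1 are members of this list as well. Among cytochrome P450 and xenobiotic genes, 3 of 32 were higher and 7 lower at an unadjusted p under 0.05, and DESeq2 called 2 lower and edgeR 0. In that list 13 were positive and 19 negative, 1 gene was apart each way and the median was -0.08. Without HFD+MEC1 replicate 3 the median was 0.02, with 17 positive and 15 negative, and without HFD+MEC1 replicate 1 it was -0.17. Cyp2b9 was at 33.6, 50.2, 129.9 and 5.58 CPM in HFD and at 9.52, 0.275, 0 and 6.63 CPM in HFD+MEC1 and overlapped (-3.73 ± 1.22, adjusted p = 0.213). Cyp2a4 was at 0.528, 1.04, 3.43 and 0.574 CPM in HFD and at 0.148, 0.236, 0 and 0.459 CPM in HFD+MEC1 and was apart downward (-2.70 ± 0.75, adjusted p = 0.138), with a fold change of -1.73 without HFD replicate 3. Both encode steroid- and drug-oxidising cytochromes, varied widely within HFD with replicate 3 highest, and have close paralogs that may share their reads.

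The cytokine and chemokine genes with the lowest p were lower, unlike the acute phase genes. Ccl2, which attracts monocytes, was at 1.06, 1.27, 1.605 and 0.882 CPM in HFD and at 0.424, 0.472, 0.257 and 0.688 CPM in HFD+MEC1 (-1.38 ± 0.40, adjusted p = 0.143). Il1b, the cytokine, was at 2.25, 2.65, 2.06 and 3.68 CPM in HFD and at 1.38, 0.983, 1.77 and 0.917 CPM in HFD+MEC1 (-1.08 ± 0.31, adjusted p = 0.143). Cxcr4, a chemokine receptor, was at 1.47, 0.949, 1.15 and 1.04 CPM in HFD and at 0.636, 0.275, 0.616 and 0.459 CPM in HFD+MEC1 (-1.21 ± 0.35, adjusted p = 0.143). The 3 genes were low and each was apart downward, while the whole list of 25 cytokine and chemokine genes had 4 higher and 5 lower at an unadjusted p under 0.05, 3 called lower by DESeq2 and 0 by edgeR, and a median of 0.05. Gpnmb, expressed by lipid-laden macrophages, was at 2.80, 2.63, 1.53 and 0.132 CPM in HFD and at 0.509, 0.157, 0.488 and 0.183 CPM in HFD+MEC1 (-2.41 ± 0.67, adjusted p = 0.138). Mmp12, a macrophage elastase, was at 3.28, 2.50, 3.39 and 0.838 CPM in HFD and at 0.975, 0.197, 0.462 and 0.183 CPM in HFD+MEC1 (-2.46 ± 0.63, adjusted p = 0.117). HFD replicate 4 was the lowest HFD library for both and overlapped with HFD+MEC1. The other 16 of the 18 macrophage markers did not reach an unadjusted p under 0.05, and the median of the list was 0.07.

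Among matrix and stellate cell genes, 9 of 40 were lower and 1 higher at an unadjusted p under 0.05, DESeq2 called 4 lower and edgeR 0, and the median was -0.14. None of these 10 genes is a collagen. The median was -0.30 without HFD replicate 4 and -0.02 without HFD replicate 1. It was -0.29, -0.09 and -0.07 without HFD+MEC1 replicates 1, 3 and 4 in turn. Lgals1, galectin 1, was at 48.2, 45.6, 84.1 and 29.9 CPM in HFD and at 24.5, 10.1, 11.3 and 18.8 CPM in HFD+MEC1 (-1.68 ± 0.37, adjusted p = 0.104). Anxa2, a membrane-binding annexin, was at 29.2, 36.4, 59.1 and 17.9 CPM in HFD and at 17.02, 12.03, 11.8 and 9.45 CPM in HFD+MEC1 (-1.503 ± 0.33, adjusted p = 0.101). Anxa5, another annexin, was at 97.1, 77.6, 148 and 83.0 CPM in HFD and at 66.4, 54.3, 54.2 and 49.5 CPM in HFD+MEC1 (-0.85 ± 0.17, adjusted p = 0.0746). Lgals1, Anxa2 and Anxa5 were apart, with HFD replicate 3 highest in all 3. The cholangiocyte and the kidney and gut epithelium marker scores were lower without overlap too, although the summed CPM of each list overlapped. The part of such cells in these genes was not tested. Col1a1, a fibrillar collagen, was at 11.9, 9.82, 11.2 and 4.24 CPM in HFD and at 7.25, 4.99, 5.90 and 4.91 CPM in HFD+MEC1 (-0.69 ± 0.34, adjusted p = 0.363). Col3a1, another, ran from 18.3 to 51.5 CPM in HFD and 18.2 to 29.9 CPM in HFD+MEC1 (-0.64 ± 0.29, adjusted p = 0.337). HFD replicate 4 was the lowest HFD library for both collagens.

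Cell cycle genes were lower at low levels. Of 37, 9 were lower and 0 higher at an unadjusted p under 0.05, 6 were apart downward, edgeR and DESeq2 called 0, and the median was -0.23. Mki67, a marker of dividing cells, was at 3.03, 2.63, 4.75 and 3.57 CPM in HFD and at 2.92, 0.825, 1.23 and 1.45 CPM in HFD+MEC1 (-1.12 ± 0.35, adjusted p = 0.164). Top2a, the replication topoisomerase, was at 2.52, 3.17, 2.65 and 3.18 CPM in HFD and at 1.97, 1.06, 1.39 and 1.03 CPM in HFD+MEC1 (-1.08 ± 0.34, adjusted p = 0.171). Rrm2, a subunit of ribonucleotide reductase, was at 4.75, 5.20, 4.04 and 4.85 CPM in HFD and at 2.80, 2.32, 1.13 and 3.76 CPM in HFD+MEC1 (-0.91 ± 0.30, adjusted p = 0.180). Top2a and Rrm2 were apart, and HFD+MEC1 replicate 1 overlapped for Mki67.

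**Figure D5:**
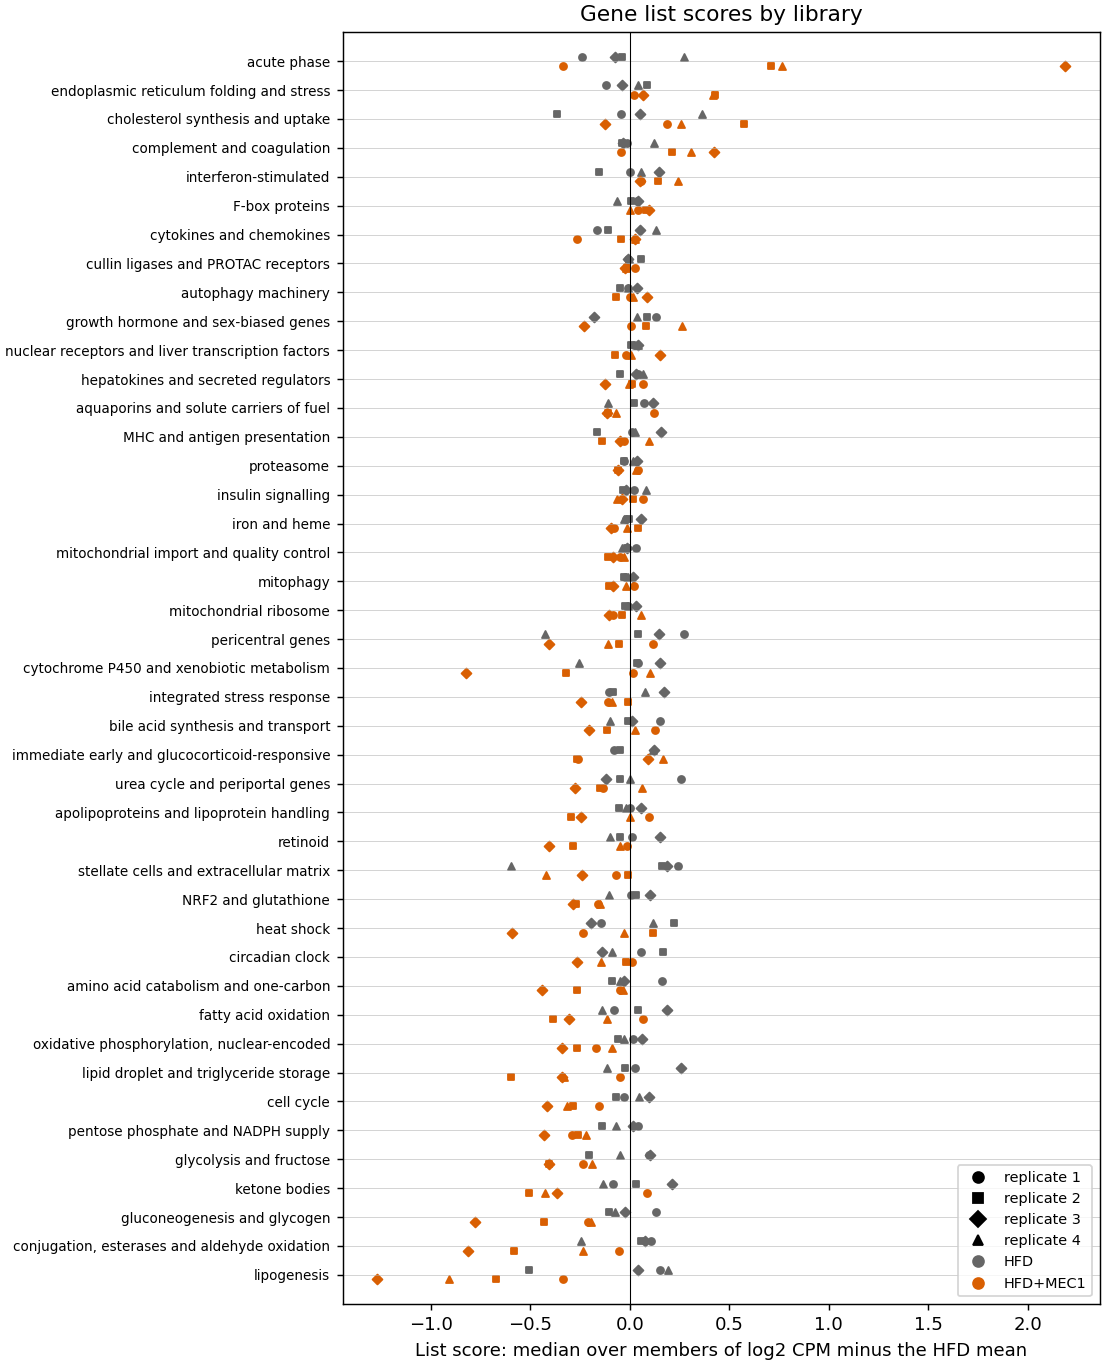
List score of each pathway list in each library, as the median over tested members of log2 CPM less the HFD mean (x axis), with 1 line per list (y axis). The widest spread is that of the acute phase list, from -0.333 in HFD+MEC1 replicate 1 to 2.19 in HFD+MEC1 replicate 3, and the lowest point is lipogenesis in HFD+MEC1 replicate 3 at -1.27.

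Zbtb16, a transcriptional repressor gene that glucocorticoids induce, was at 4.18, 10.4, 6.58 and 15.8 CPM in HFD and at 35.3, 40.9, 31.7 and 38.7 CPM in HFD+MEC1. The lowest treated library was at 31.7 CPM and the highest HFD library, replicate 4, at 15.8 CPM. Zbtb16 had a log2 fold change of 1.99 ± 0.33 (edgeR adjusted p = 0.0632), and it was the 1 gene that limma-voom called. Fkbp5, another glucocorticoid-induced gene, was at 15.2, 12.9, 17.4 and 17.6 CPM in HFD and at 23.3, 22.7, 20.3 and 43.3 CPM in HFD+MEC1 and was apart upward, with HFD+MEC1 replicate 4 highest (0.80 ± 0.22, adjusted p = 0.146). Without that library its fold change was 0.49. Early transcription factor genes of the same list stood on the lower side. Klf6 was at 12.9, 13.9, 19.3 and 12.7 CPM in HFD and at 9.58, 8.08, 6.78 and 7.43 CPM in HFD+MEC1 (-0.88 ± 0.16, adjusted p = 0.0576). Atf3 was at 2.34, 2.33, 2.89 and 2.34 CPM in HFD and at 1.65, 0.904, 1.03 and 1.06 CPM in HFD+MEC1 (-1.09 ± 0.25, adjusted p = 0.101). Jun was at 25.3, 29.1, 39.5 and 63.2 CPM in HFD and at 15.03, 14.8, 14.4 and 13.8 CPM in HFD+MEC1 (-1.44 ± 0.35, adjusted p = 0.129). All 3 were apart downward, and Jun was nearly level across the treated libraries while HFD replicate 4 was high. Fkbp5 and Jun were chosen after their values were seen. The list of 28 immediate early and glucocorticoid-responsive genes had 5 higher and 4 lower at an unadjusted p under 0.05. In that list 2 genes were apart upward and 5 downward, and DESeq2 called 2 higher and 3 lower and edgeR 0. Its median was -0.12, or -0.06 without HFD replicate 3, -0.06 without HFD+MEC1 replicate 2 and -0.18 without HFD+MEC1 replicate 3.

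For nuclear receptors and liver transcription factors, 6 of 37 were higher and 3 lower at an unadjusted p under 0.05, DESeq2 called 2 lower and edgeR 0, and the median was 0.002. Rxra, the shared partner of many nuclear receptors, ran from 299 to 341 CPM in HFD and 343 to 462 CPM in HFD+MEC1 (0.32 ± 0.11, adjusted p = 0.188). Hnf4a, the factor that maintains hepatocyte identity, ran from 465 to 537 CPM in HFD and 538 to 748 CPM in HFD+MEC1 (0.31 ± 0.12, adjusted p = 0.254). Both were apart upward by small gaps. Rarb, a retinoic acid receptor gene, ran from 3.49 to 4.62 CPM in HFD and 1.54 to 2.79 CPM in HFD+MEC1 and was apart downward (-0.83 ± 0.22, adjusted p = 0.120), with 38.4% of its exonic sequence overlapped by an opposite-strand gene. Of 22 retinoid genes, 7 were lower and 0 higher at an unadjusted p under 0.05 and DESeq2 called 1 lower and edgeR 0. Their median was -0.14, or -0.22 without HFD replicate 4, -0.24 without HFD+MEC1 replicate 1 and -0.06 without HFD+MEC1 replicate 3.

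Secreted regulators, metal handling genes and channels went both ways. Of 31 hepatokine genes 7 were higher and 7 lower, of 31 iron and heme genes 4 higher and 7 lower, and of 24 aquaporins and fuel carriers 2 higher and 5 lower at an unadjusted p under 0.05. DESeq2 called 4 hepatokine genes higher and 2 lower, 1 iron and heme gene each way, and 1 channel or carrier higher and 2 lower, and edgeR called 0. The medians were -0.01, -0.04 and -0.01. Hamp2, a hepcidin gene with a close paralog, was at 12.6, 2.89, 6.72 and 3.90 CPM in HFD and at 2.46, 0.825, 1.03 and 2.22 CPM in HFD+MEC1 (-1.99 ± 0.46, adjusted p = 0.101). Fst, follistatin, which binds activins, was at 2.62, 2.29, 2.14 and 2.96 CPM in HFD and at 1.67, 0.629, 1.08 and 0.596 CPM in HFD+MEC1 (-1.33 ± 0.28, adjusted p = 0.0746). Slc39a14, a zinc and iron importer, was at 107, 112, 101 and 128 CPM in HFD and at 131, 148, 260.2 and 173 CPM in HFD+MEC1 (0.67 ± 0.18, adjusted p = 0.129), with a fold change of 0.43 without HFD+MEC1 replicate 3. Hamp2, of whose exonic sequence 15.3% overlaps an opposite-strand gene, and Fst were apart downward and Slc39a14 upward. Aqp8, a hepatocyte water and peroxide channel, was at 245, 138, 285 and 274 CPM in HFD and at 137, 86.2, 74.2 and 109 CPM in HFD+MEC1 (-1.21 ± 0.23, adjusted p = 0.0766). Aqp4, a water channel, was at 9.59, 4.55, 9.69 and 4.32 CPM in HFD and at 2.59, 1.47, 2.00 and 3.44 CPM in HFD+MEC1 (-1.57 ± 0.35, adjusted p = 0.0992). Both were apart downward, Aqp8 by the narrow gap between HFD replicate 2 and HFD+MEC1 replicate 1.

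Of 17 urea cycle and periportal genes 1 was higher and 3 lower at an unadjusted p under 0.05, of 17 pericentral genes 1 higher and 3 lower, and of 35 growth hormone and sex-biased genes 4 higher and 6 lower. Of 20 clock genes 3 were lower and 0 higher, of 19 integrated stress response genes 2 lower and 0 higher, of 18 heat shock genes 1 lower and 0 higher, and of 23 antigen presentation genes 1 higher and 1 lower. DESeq2 called 4 growth hormone and sex-biased genes higher and 1 lower, 1 integrated stress response gene and 1 heat shock gene lower and 0 of the other 4 lists, and edgeR called 0 in all 7. Medians were -0.13 for urea cycle, -0.07 for pericentral, 0.003 for growth hormone, -0.17 for clock, -0.09 for stress response, -0.17 for heat shock and -0.01 for antigen presentation genes. The urea cycle median was -0.05 without HFD replicate 1 and -0.08 without HFD+MEC1 replicate 3. That of heat shock genes was -0.12 without HFD replicate 4, -0.30 without HFD+MEC1 replicate 2 and -0.04 without HFD+MEC1 replicate 3. Axin2, a Wnt target gene of the pericentral list, ran from 3.33 to 4.80 CPM in HFD and 4.93 to 8.80 CPM in HFD+MEC1 and was apart upward (0.56 ± 0.22, adjusted p = 0.240), with a fold change of 0.35 without HFD+MEC1 replicate 3. Hspb1, a small heat shock protein, ran from 17.7 to 31.7 CPM in HFD and 15.5 to 19.3 CPM in HFD+MEC1 and overlapped through HFD replicate 1 (-0.56 ± 0.16, adjusted p = 0.138).

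The other 26 of the 30 genes with the lowest p had adjusted p values between 0.0576 and 0.0717 and were all apart. Several are described above. Pim1, a kinase gene that STAT factors induce, was at 5.78, 5.76, 7.01 and 7.79 CPM in HFD and at 10.6, 10.8, 17.5 and 15.4 CPM in HFD+MEC1 (1.04 ± 0.19, adjusted p = 0.0576). Of the exonic sequence of Pim1 14.5% overlaps an opposite-strand gene. Rapgef4, a cyclic AMP sensor, was at 70.7, 89.3, 86.1 and 84.5 CPM in HFD and at 110.2, 118, 133 and 145 CPM in HFD+MEC1 (0.62 ± 0.11, adjusted p = 0.0576). Slco2a1, a prostaglandin transporter, was at 25.5, 32.4, 28.5 and 46.1 CPM in HFD and at 54.5, 57.4, 57.8 and 55.0 CPM in HFD+MEC1 (0.76 ± 0.15, adjusted p = 0.0717). Mkl1, a coactivator of serum response factor, was at 5.26, 5.07, 5.43 and 6.53 CPM in HFD and at 8.52, 9.51, 10.2 and 9.54 CPM in HFD+MEC1 (0.76 ± 0.15, adjusted p = 0.0701). Rapgef4, Slco2a1 and Mkl1 were higher on MEC1, with Slco2a1 nearly level across the treated libraries. Slc17a4, an anion transporter, was at 59.1, 43.8, 64.5 and 45.2 CPM in HFD and at 32.5, 21.97, 16.5 and 28.8 CPM in HFD+MEC1 (-1.09 ± 0.20, adjusted p = 0.0632). Sult1c2, a sulfotransferase, was at 4.45, 3.04, 5.45 and 2.43 CPM in HFD and at 1.91, 0.884, 1.33 and 1.33 CPM in HFD+MEC1 (-1.49 ± 0.29, adjusted p = 0.0701). Rad51b, a DNA repair gene, was at 4.54, 11.4, 12.7 and 5.16 CPM in HFD and at 2.14, 1.45, 2.41 and 1.47 CPM in HFD+MEC1 (-2.18 ± 0.41, adjusted p = 0.0701). These were lower on MEC1, and HFD itself split for Rad51b, with replicates 2 and 3 more than 2-fold above replicates 1 and 4. Gas2, Rtn4, Tfpi2, Lrrc28, Fam213a, Fam126a and Uck1 were also lower, with log2 fold changes from -0.89 ± 0.16 (Fam126a) to -0.42 ± 0.08 (Rtn4), as was 9030616G12Rik, and Wdr46 was higher (0.58 ± 0.11, adjusted p = 0.0632). E030018B13Rik was at 2 counts or fewer in every HFD library and at 16, 10, 15 and 12 counts in HFD+MEC1.

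Among genes at a mean of 1 CPM or more that were apart, the largest downward fold after that of Pnpla3 was that of Gm3776, at 17.9, 29.99, 45.5 and 4.87 CPM in HFD and at 4.39, 0.314, 1.28 and 1.77 CPM in HFD+MEC1 (-3.66 ± 0.84, adjusted p = 0.121). Themis, a T cell signalling gene, followed at 9.43, 12.1, 12.01 and 2.38 CPM in HFD and at 1.82, 0.570, 1.28 and 1.93 CPM in HFD+MEC1 (-2.68 ± 0.66, adjusted p = 0.129). HFD replicate 4 was the lowest HFD library for both and stood just above the highest treated one. T and NK cell markers, of which 9 were tested, summed to 4.73 to 6.50 CPM in HFD and 7.25 to 8.83 CPM in HFD+MEC1, and their part in the value of Themis was not tested. Gprc5b, an orphan receptor gene, was at 0.918, 2.29, 7.61 and 1.19 CPM in HFD and at 0.763, 0.393, 0.513 and 0.321 CPM in HFD+MEC1 (-2.59 ± 0.64, adjusted p = 0.113). Cyp2a22 was at 1.91, 2.37, 12.1 and 1.46 CPM in HFD and at 1.40, 0.393, 0.513 and 0.711 CPM in HFD+MEC1 (-2.56 ± 0.76, adjusted p = 0.171). HFD replicate 3 was far above the rest for Gprc5b, 13.1% of whose exonic sequence overlaps an opposite-strand gene, and for Cyp2a22, and Cyp2a22 may share reads with Cyp2a4. Without HFD replicate 3 the fold changes were -1.55 for Gprc5b and -1.34 for Cyp2a22. The largest upward folds were those of Socs3, Adgrf1, Zbtb16, Serpina1e, Fam222a and Sept5. Adgrf1, an adhesion receptor gene, was at 0.597, 0.129, 0.0396 and 1.57 CPM in HFD and at 2.59, 2.95, 1.80 and 4.06 CPM in HFD+MEC1 (2.30 ± 0.69, adjusted p = 0.177), with a fold change of 3.51 without HFD replicate 4. Fam222a was at 3.01, 1.34, 1.66 and 2.38 CPM in HFD and at 3.16, 7.29, 9.70 and 4.27 CPM in HFD+MEC1 (1.54 ± 0.39, adjusted p = 0.124). Sept5, a septin gene, shares 83.7% of its exonic sequence with another gene model on the same strand (1.40 ± 0.43, adjusted p = 0.163).

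Some genes varied widely between libraries of 1 group. Moxd1, a monooxygenase-like gene, was at 0.0459, 0.0432, 0.0396 and 14.3 CPM in HFD and at 0, 186, 206 and 32.1 CPM in HFD+MEC1 (4.88 ± 1.94, adjusted p = 0.293). It rested on 2 counts in each of HFD replicates 1 to 3 and on 0 counts in HFD+MEC1 replicate 1, while HFD+MEC1 replicates 2 and 3 had 9468 and 8016 counts. Without HFD replicate 4 its fold change was 11.19 (edgeR adjusted p = 0.115), a value that rests on those 2 counts a library. Hsd3b5, a male-biased steroid dehydrogenase of liver with close paralogs, was at 266, 169.5, 13.8 and 230.1 CPM in HFD and at 279, 332, 204 and 397 CPM in HFD+MEC1 (0.84 ± 0.65, adjusted p = 0.604). HFD replicate 3 was far below all other libraries for Hsd3b5, without which its fold change was 0.45. Tff3, a trefoil factor, was at 0.918, 0.302, 0.594 and 8.43 CPM in HFD and at 3.03, 17.8, 10.9 and 6.63 CPM in HFD+MEC1 (1.91 ± 0.95, adjusted p = 0.388). Kap, a kidney androgen-regulated gene, was at 0.0459, 1.25, 0.832 and 2.14 CPM in HFD and at 0.170, 0.118, 0.0513 and 0.229 CPM in HFD+MEC1 (-2.87 ± 1.20, adjusted p = 0.306). Without HFD replicate 4 the fold change of Tff3 was 3.99 and passed the threshold (edgeR adjusted p = 0.0385). HFD replicate 4 lay among the treated libraries for Tff3. The groups also overlapped for Kap, through HFD replicate 1. That library and HFD+MEC1 replicate 3 were both at fewer than 3 counts of Kap, so their order carries no weight.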

How the data were processed

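Mouse liver RNA was sequenced in 12 libraries, 4 per group. The authors deposited a table per library with a raw count per gene symbol, in a column that, per the file headers, is named for a coverage track. They also deposited 1 table of RPKM (counts per gene length and library size) for the series. Of counts from 1 to 20, 70.1 to 74.7% per library were even, and what 1 count stands for (a read or a mate) is not given in the sources used here. Per the submitters' processing notes STAR 2.7.10a and mm10 were used. The counting tool, its annotation and its use of strand are not given in the sources used here. The RPKM table has columns that match no sample (12), which were not used.

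Counts were analysed with edgeR 4.0.16 (R 4.3.3): filterByExpr, which kept 14172 of 24787 genes, TMM factors, and a robust quasi-likelihood fit with 1 mean per group over the 12 libraries, which share 1 estimate of spread, with Benjamini-Hochberg adjustment. The kept genes hold 99.98% of counts. SE is the absolute log2 fold change over the root of F. Log2 CPM used a prior count of 2. A floor of 3 counts is 0.0590 to 0.0770 CPM in these libraries, and covers counting error only. Alternatives were DESeq2 1.42.0, limma-voom (limma 3.58.1), other scalings and filters, the 8 libraries alone, a replicate number term, limma on deposited log2(RPKM + 1) or log2(RPKM + 0.1), and each library left out. Scripts were tested on simulated counts.

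Gene lists and named genes were chosen with earlier results of these data known. Named genes are those past the threshold, the 30 with the lowest p, the 6 largest rises and 6 largest falls without overlap at a mean of 1 CPM or more, up to 3 per list by lowest p, Pink1, Park2, Usp30, Crbn and Vhl, and the 6 of largest spread in each group. Me1, Khk, G6pc, Rpia, Fkbp5 and Jun lie outside that rule and were chosen after their values were seen. Some genes that the rule names are not reported here. Gene overlaps are those of GENCODE M21, in which 132 of the 134 genes followed through the alternatives were found. Upstream windows are from RefSeq (GRCm38.p6), where 112 of the 134 have one. Genes of the mitochondrial genome were not analysed here.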

Additional observations from a re-analysis of the deposited data

Results flagged for a closer look

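In each group of 4 libraries, a value is noted here when its gap to the nearest other library, as a share of the group's range, exceeded Dixon's critical value. This held for 22 of 354 groups examined (6.22%). Some of these genes were chosen for their spread or low p in these same libraries. The share can therefore not be set against the 1 in 20 of the critical value, and single values carry little weight. HFD replicate 4 held 9 of the 22, HFD replicate 3 and HFD+MEC1 replicate 3 held 4 each, HFD replicate 2 and HFD+MEC1 replicate 1 held 2 each and HFD+MEC1 replicate 4 held 1.

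In HFD replicate 4, the acute phase genes Saa1 and Saa2 stood at 1178 CPM (78.9 to 95.1 in the other HFD libraries) and 849.9 CPM (31.2 to 45.1). Moxd1 was at 14.3 CPM (0.0396 to 0.0459) and Tff3 at 8.43 CPM (0.302 to 0.918). Serpinf2 was at 794 CPM (568 to 591), whereas Mrpl16 was low at 28.9 CPM (36.2 to 37.5). The list scores of HFD replicate 4 were -0.596 for matrix genes (0.164 to 0.242 in the others), -0.243 for conjugation genes (0.0565 to 0.104) and 0.123 for complement and coagulation genes (-0.0380 to -0.0122).

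In HFD+MEC1 replicate 3, Saa2 stood at 7091 CPM (9.41 to 1096 in the other treated libraries), Lcn2 at 1237 CPM (3.65 to 93.4), Orm2 at 638 CPM (2.90 to 80.9) and Mt2 at 364 CPM (1.18 to 6.45). In HFD+MEC1 replicate 1, Me1 was at 183 CPM (61.8 to 81.5) and Uck1 at 32.6 CPM (24.0 to 24.9), both toward the HFD level. Fkbp5 was at 43.3 CPM in HFD+MEC1 replicate 4 (20.3 to 23.3).

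In HFD replicate 3, Apoa4 was at 2597 CPM (854 to 1084 in the other HFD libraries), Cyp2a22 at 12.1 CPM (1.46 to 2.37), Atf3 at 2.89 CPM (2.33 to 2.34) and Cyp7b1 low at 113 CPM (217 to 238). In HFD replicate 2, Rxra was low at 299 CPM (336 to 341) and the score of cullin ligases was 0.0542 (-0.00986 to -0.00354).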

How the results depend on the processing

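Counts of genes past an adjusted p of 0.05, 4 with edgeR, were 0 with library totals, 389 with DESeq2 (146 higher, 243 lower), 1 with limma-voom, 17 with no low-count filter, 2 with the 8 libraries alone, 1 on log2(RPKM + 1) and 0 on log2(RPKM + 0.1). They ranged from 0 to 460 as each library was left out. With a replicate block edgeR called 21 genes (7 higher, 14 lower). Same-numbered libraries of the 2 groups correlated at only 0.133, 0.0566, 0.0201 and 0.0413, so the numbers were not taken to pair them. The cause of these differences was not tested. Of 134 genes followed through the alternatives, 131 kept their direction under each alternative that tested them, which was 21 for 5 genes and 22 for the rest. The exceptions were Crbn, Park2 and Usp30: as each library was left out, log2 fold changes ran from -0.0717 to 0.0228 for Crbn, from -0.0913 to 0.563 for Park2 and from -0.0652 to 0.00227 for Usp30. Of 2943 values of these genes, 2662 kept direction and side of the threshold, 227 passed it only under the alternative, 50 lost it and 4 reversed. Most of the 134 genes were chosen for low p, large fold or wide spread in these same libraries, so kept directions carry little weight. The exceptions Crbn, Park2 and Usp30 were named whatever their p. No alternative for mitochondrial genome counts was run. Depth limits Pnpla3 and Moxd1, which had fewer than 10 counts in several libraries. It also limits other genes at low CPM, such as Kap, Adgrf1, Cyp2a4 and E030018B13Rik, each under the floor of 3 counts in at least 1 library.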
